A study of Mus musculus with 6 samples.

Results

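The surface genes by which growing axons recognise and bundle with each other were followed across 3 Sox11 genotypes in mouse dentate neuroepithelium. The 10 genes are L1cam, Nrcam, Chl1 and Nfasc of the L1 family, the contactins Cntn1 and Cntn2, the neural cell adhesion molecules Ncam1 and Ncam2, and the axonal surface genes Islr2 and Gpc2. They were matched by symbol in a deposited table of 35274 genes, where each symbol had 1 row, and all 10 passed a filter of a mean of at least 1 TPM. TPM is an abundance in transcripts per 1000000, corrected for transcript length, so levels of different genes can be compared. The genes were chosen by family with the genotype differences of these same libraries already known, so those differences are given here as a description. Gpc2 is a proteoglycan and Islr2 joins leucine-rich repeats to an immunoglobulin domain, so the set is not purely one of immunoglobulin adhesion genes.

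The libraries came from dentate neuroepithelium, the ventricular wall that gives rise to the dentate gyrus, of mice labelled embryonic day 14. Wild type (WT), SOX11f/+ (called haplodeficient in the labels) and SOX11f/f (called homodeficient) had 2 libraries each, and poly(A) RNA was sequenced. A floxed allele is removed only where a Cre recombinase acts. The sources used here give no Cre line, strain or sex. Whether each library was made from its own embryo is not stated, and the p-values therefore reflect only library-to-library spread, which may be technical. From its title, the study asks how loss of Sox11 bears on progenitor polarity and on mossy fibres, the axons of dentate granule neurons.

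L1 family proteins span the membrane, bind like molecules or contactins on a neighbouring axon, and anchor to ankyrin and the spectrin skeleton inside the cell. Contactins are tied to the membrane by a lipid anchor and act beside these partners, while NCAM proteins hold cells together less firmly when they carry polysialic acid. Together these molecules are known for guiding axon outgrowth and fasciculation, and several later sit at the axon initial segment and the node of Ranvier. Sox11 encodes a SoxC transcription factor of newborn neurons.

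Sox11 itself followed the labels. Its level was 192 and 130 TPM in wild-type libraries, 56.1 and 50.1 in SOX11f/+ and 5.23 and 5.06 in SOX11f/f. Tissue markers were mixed for the labelled stage. The 8 radial glia and 5 intermediate progenitor markers were above 1 TPM in all 6 libraries, but so were 6 of 6 astrocyte and 6 of 6 mature excitatory neuron markers. Gfap lay between 268 and 576 TPM and Camk2a between 121 and 496 TPM. Choroid plexus markers set 2 libraries apart, with Ttr at 11259 TPM in SOX11f/+ replicate 1 and 6421 in SOX11f/f replicate 1 against 2.04 to 184 in the other 4. Between 18722 and 19408 genes per library were above 0 TPM, and a TPM table keeps no read depth.

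Across the 10 genes the 3 genotypes did not differ as a block. Gpc2, Cntn2 and Islr2 stood lower with floxed alleles, Nfasc and Ncam1 stood somewhat lower, Cntn1 stood higher in SOX11f/f, and L1cam, Nrcam, Chl1 and Ncam2 showed smaller differences. In SOX11f/f against wild type, 5 of 10 genes had both libraries below both wild type libraries, where 30.7% of all 14518 genes tested did, and 2 of 10 had both above, where 23.6% did. In SOX11f/+ against wild type, 5 of 10 lay wholly below (28.9% of all genes) and 0 of 10 wholly above (17.1%). Between SOX11f/f and SOX11f/+, 4 of 10 lay wholly below (13.7%) and 2 of 10 wholly above (15.3%). With limma and Benjamini-Hochberg adjustment over all genes, 0 of 10 passed an adjusted p of 0.05 in any of these comparisons. The shares of all genes called were 0.0413% for SOX11f/f against wild type, 0.0344% for SOX11f/+ against wild type and 0.0138% between the floxed genotypes. At an unadjusted p under 0.05, the counts were 4, 5 and 2 of 10 genes, where 18.1%, 14.1% and 2.05% of all genes lay. Because these contrasts were in view when the genes were picked, nothing is read from their counts.

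**Figure D1:**
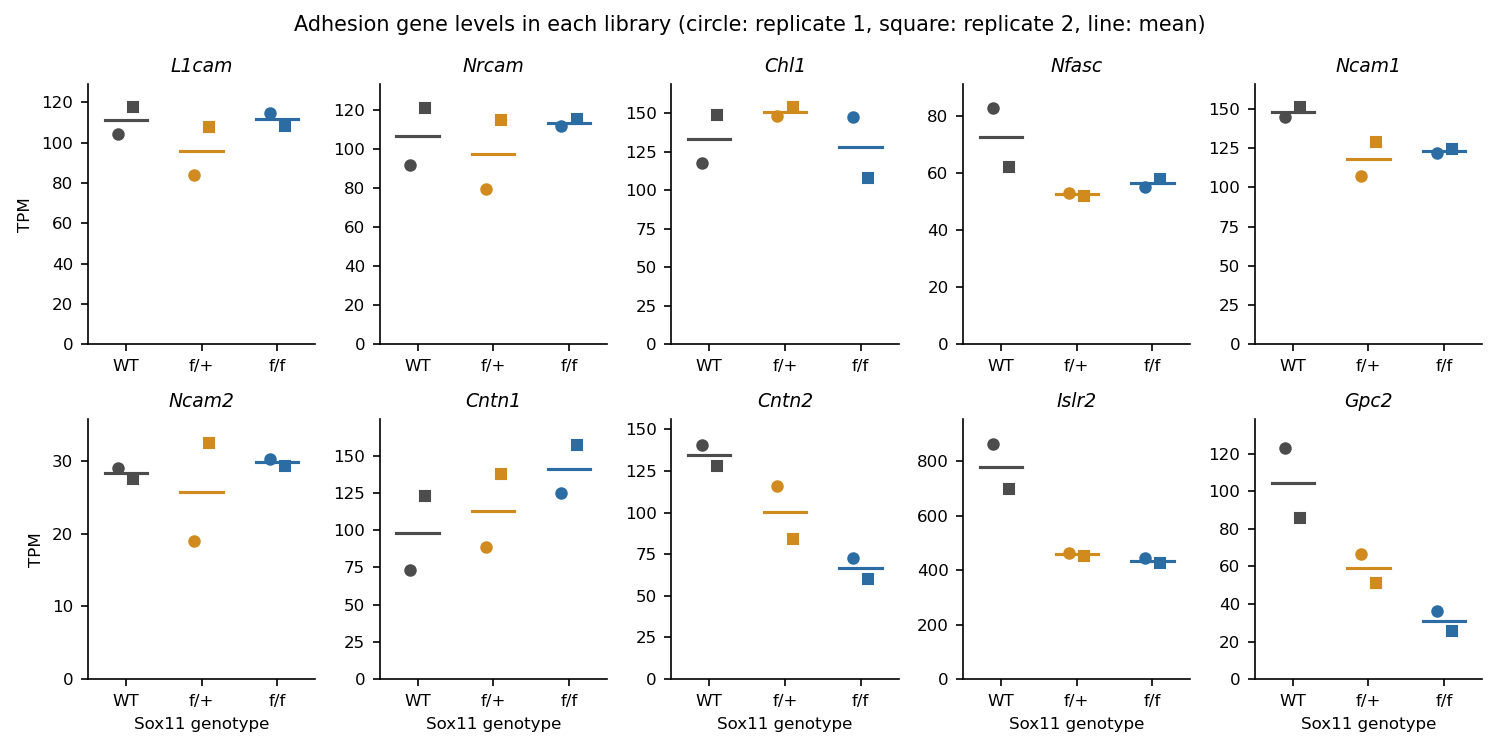
TPM of each of the 10 genes (vertical axes from 0) by Sox11 genotype, with 2 libraries each. Gpc2 and Cntn2 step down from wild type to SOX11f/+ to SOX11f/f without overlap, Islr2 is lower in both floxed genotypes, and L1cam, Nrcam, Chl1 and Ncam2 in SOX11f/f stand close to the wild type range.

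Islr2, also called Linx, encodes a neuronal membrane protein that in mouse binds the neurotrophin receptor TrkA and the receptor Ret on axons. It was the most abundant of the 10 genes by far, at 862 and 700.5 TPM in wild-type libraries, 465 and 454 in SOX11f/+ and 444 and 427 in SOX11f/f. Both floxed genotypes lay wholly below wild type, and SOX11f/f lay just under SOX11f/+, at 58.8% and 55.7% of the wild type mean. The difference of log2(TPM + 1) from wild type was -0.76 (SE 0.11) in SOX11f/+ and -0.83 (SE 0.11) in SOX11f/f, while SOX11f/f and SOX11f/+ differed by -0.08 (SE 0.11). Islr2 made up 48.7% and 42.1% of the summed TPM of the 10 genes in wild type libraries and 34.5% to 37.9% in the 4 floxed libraries. Without Islr2, the other 9 genes summed to 907 and 965 TPM in wild-type libraries, 762 and 863 in SOX11f/+ and 816 and 786 in SOX11f/f.

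Gpc2, or cerebroglycan, is a lipid-anchored heparan sulfate proteoglycan known from rat brain as a marker of newly formed neurons extending axons. Its level was 123 and 85.6 TPM in wild-type libraries, 66.7 and 51.2 in SOX11f/+ and 36.4 and 25.4 in SOX11f/f. The 3 genotypes formed separate steps, with floxed means at 56.5% and 29.6% of wild type. On the log2(TPM + 1) scale Gpc2 differed by -0.80 (SE 0.24) in SOX11f/+, by -1.72 (SE 0.24) in SOX11f/f, and by -0.92 (SE 0.24) between them.

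Start-site sequence is shown here for Gpc2, Cntn2, Islr2 and Cntn1, the 4 genes with the largest differences in either direction between SOX11f/f and wild type. Each run is a RefSeq window on GRCm38.p6, from 250 bases before to 50 after an annotated start, read 5′ to 3′ on the gene's strand. Capitals mark matches to the 7-letter Sox consensus, searched on both strands: 2 letters that are each A or T, then CAA, then A or T, then G. That makes 8 words, of which ATCAAAG is an example. Islr2 lies at chr9:58204270-58204569 (minus strand, the outermost of 3 listed starts), Gpc2 at chr5:138279888-138280187 (minus), Cntn2 at chr1:132542891-132543190 (minus) and Cntn1 at chr15:92050915-92051214 (plus, the first of 3 starts).
Islr2: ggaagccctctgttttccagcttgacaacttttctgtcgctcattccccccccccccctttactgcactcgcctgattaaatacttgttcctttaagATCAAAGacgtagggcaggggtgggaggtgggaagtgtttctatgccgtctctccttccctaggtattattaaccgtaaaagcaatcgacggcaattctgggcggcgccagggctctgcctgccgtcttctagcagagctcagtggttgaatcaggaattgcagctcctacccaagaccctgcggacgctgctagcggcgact
Gpc2: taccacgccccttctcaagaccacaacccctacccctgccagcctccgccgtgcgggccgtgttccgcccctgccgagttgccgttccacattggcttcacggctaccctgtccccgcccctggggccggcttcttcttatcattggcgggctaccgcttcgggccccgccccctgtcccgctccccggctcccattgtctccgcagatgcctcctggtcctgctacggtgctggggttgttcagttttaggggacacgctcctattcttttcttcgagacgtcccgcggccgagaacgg
Cntn2: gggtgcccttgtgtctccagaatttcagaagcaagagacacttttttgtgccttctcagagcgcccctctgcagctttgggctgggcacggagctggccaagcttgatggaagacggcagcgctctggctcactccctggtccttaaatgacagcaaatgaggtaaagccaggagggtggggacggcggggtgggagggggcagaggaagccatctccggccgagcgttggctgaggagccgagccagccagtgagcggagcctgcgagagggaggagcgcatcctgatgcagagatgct
Cntn1: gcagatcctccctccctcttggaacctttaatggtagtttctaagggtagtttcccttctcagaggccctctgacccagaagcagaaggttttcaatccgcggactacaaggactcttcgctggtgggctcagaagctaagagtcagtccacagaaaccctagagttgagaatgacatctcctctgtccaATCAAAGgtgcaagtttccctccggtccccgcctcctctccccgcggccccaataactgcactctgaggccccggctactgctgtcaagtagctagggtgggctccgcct

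The Islr2 window held 1 match, ATCAAAG, 153 bases before the start, and the Cntn1 window held 1, also ATCAAAG, 60 bases before it. Neither the Gpc2 nor the Cntn2 window held a match, nor did the windows of Nfasc. Of 15 windows listed for 9 of the genes, 4 held a match, 3 of them at Cntn1, where 24.6% of all 32851 windows did. GC content ran from 54.0% for Islr2 to 65.7% for Gpc2 among the 4 windows shown, where the median window had 52.7%. Gpc2 had 26 CG pairs and Cntn1 9, against a median of 7 in all windows. A match is only a run of letters, and its absence from a window says nothing of the factor.

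The contactins differed in opposite directions in SOX11f/f. Cntn2, also known as TAG-1, is found on outgrowing axons in the embryo and later beside the node of Ranvier. It stood at 140.4 and 128 TPM in wild-type libraries, 116 and 84.4 in SOX11f/+ and 72.7 and 60.3 in SOX11f/f. As with Gpc2, no library of one genotype reached into the next. The differences of log2(TPM + 1) were -0.44 (SE 0.17) for SOX11f/+ and -1.01 (SE 0.17) for SOX11f/f against wild type, and -0.57 (SE 0.17) between both floxed genotypes.

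Cntn1, which pairs with contactin-associated protein where myelin meets the axon, stood at 73.6 and 123 TPM in wild-type libraries, 88.7 and 137 in SOX11f/+ and 125 and 157 in SOX11f/f. The SOX11f/f libraries lay above wild type by a gap small beside the spread of the wild type pair, while SOX11f/+ overlapped both. Replicate 2 held more Cntn1 than replicate 1 in every genotype, by 1.67, 1.55 and 1.26 times, and the log2(TPM + 1) difference of 0.56 in SOX11f/f had an SE of 0.29. Mature excitatory neuron markers had the same order of libraries within genotypes. Their 6 genes, none at 0, summed to 700 and 1198 TPM in wild-type libraries, 764 and 1300 in SOX11f/+ and 1210 and 1692 in SOX11f/f, and 6 of 6 had a mean difference above 0 in SOX11f/f against wild type. Oligodendrocyte lineage markers (8 genes, none at 0 in all libraries) summed to 162 and 247 TPM in wild-type libraries, 291 and 298 in SOX11f/+ and 274 and 386 in SOX11f/f. The part of either in the level of Cntn1 was not tested.

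Set against each other, the 2 contactins stood in opposite order in wild type and SOX11f/f. The ratio of Cntn2 to Cntn1 TPM was 1.91 and 1.04 in wild type, 1.31 and 0.614 in SOX11f/+ and 0.580 and 0.383 in SOX11f/f. Cntn2 was thus the higher of the pair in both wild type libraries, barely so in replicate 2, and the lower in both SOX11f/f libraries. Their sum varied less, from 198 to 251 TPM over the 6 libraries.

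The L1 family showed no common direction. L1cam, the founding member and an axon growth and bundling molecule, stood at 105 and 118 TPM in wild-type libraries, 83.9 and 108 in SOX11f/+ and 115 and 108 in SOX11f/f. Each floxed genotype overlapped wild type, SOX11f/f lay just above SOX11f/+, and the SOX11f/f difference of log2(TPM + 1) was 0.01 (SE 0.14). Nrcam, a partner of contactins that later gathers at nodes, stood at 91.8 and 121 TPM in wild-type libraries, 79.6 and 115 in SOX11f/+ and 112 and 115 in SOX11f/f. It overlapped in every comparison, with differences from wild type of -0.14 and 0.10 (SE 0.20 each). Nrcam is on chromosome 12, as is Sox11, 17.0 megabases away.

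Chl1, the close homolog of L1 that acts with neuropilin in semaphorin responses, stood at 117 and 148 TPM in wild-type libraries, 148 and 154 in SOX11f/+ and 148 and 108 in SOX11f/f. Both floxed genotypes overlapped wild type, and SOX11f/f lay wholly below SOX11f/+, with differences from wild type of 0.19 in SOX11f/+ and -0.06 in SOX11f/f (SE 0.17 each). Nfasc, the neurofascin gene whose isoforms organise the axon initial segment and the node, was the L1 family gene with both floxed genotypes below wild type. It stood at 82.8 and 62.2 TPM in wild-type libraries, 53.1 and 52.1 in SOX11f/+ and 55.3 and 57.9 in SOX11f/f. The gap between the lowest wild type and the highest floxed library was small beside the spread of the wild type pair, and the differences were -0.44 and -0.34 (SE 0.14 each). Summed over the 4 genes, the L1 family came to 396 and 449 TPM in wild-type libraries, 365 and 429 in SOX11f/+ and 429 and 389 in SOX11f/f.

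Ncam1, the main carrier of polysialic acid in brain, was the second most abundant of the 10 genes in wild type, at 145 and 151 TPM in wild-type libraries, 107 and 129 in SOX11f/+ and 122 and 124 in SOX11f/f. Both floxed genotypes lay below wild type, with differences of log2(TPM + 1) of -0.33 and -0.26 (SE 0.11 each). Its relative Ncam2, best known from olfactory axons, was the lowest of the 10, at 29.0 and 27.5 TPM in wild-type libraries, 19.0 and 32.4 in SOX11f/+ and 30.3 and 29.3 in SOX11f/f. SOX11f/f lay just above wild type, with a difference of 0.07 (SE 0.23), and the SOX11f/+ libraries fell on either side of all others.

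**Figure D2:**
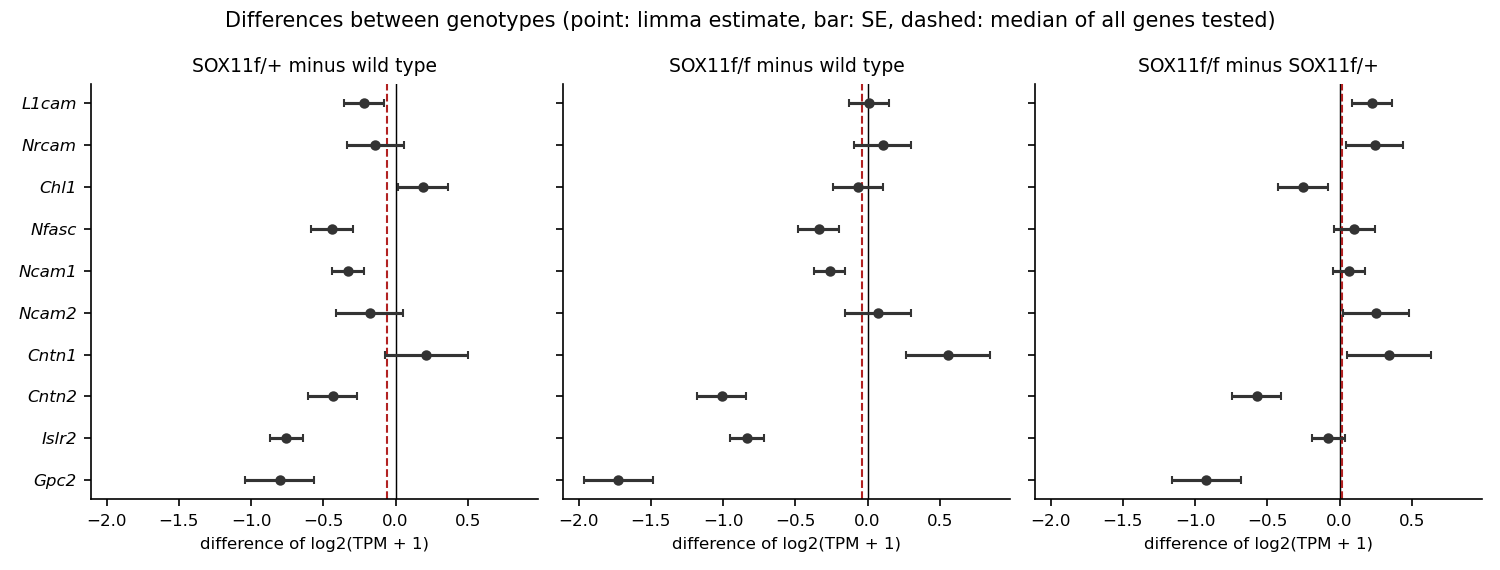
Differences of log2(TPM + 1) between genotypes for the 10 genes (horizontal axes), as limma estimates with their SE, and the median of all 14518 genes tested as a dashed line. Gpc2 at -1.72, Cntn2 at -1.01 and Islr2 at -0.83 stand farthest below 0 in SOX11f/f against wild type, and Cntn1 at 0.56 farthest above.

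For SOX11f/f against wild type the differences of the 10 genes had a median of -0.16, where all genes had -0.04, and 6 of 10 lay below 0, where 55.2% of all genes did. For SOX11f/+ against wild type the median was -0.27, where all genes had -0.06, with 8 of 10 below 0 and 59.8% of all genes. Between the floxed genotypes it was 0.09, where all genes had 0.01, with 4 of 10 below 0 and 45.9% of all genes. These 3 comparisons share libraries, and single libraries moved the medians. The SOX11f/f median was -0.097 without wild-type replicate 2 and -0.27 without SOX11f/f replicate 1. The SOX11f/+ median was -0.12 without SOX11f/+ replicate 1 and -0.41 without replicate 2, and the median between floxed genotypes was then -0.063 and 0.14. The lowest adjusted p values from limma in SOX11f/f against wild type were 0.061 for Islr2 and Gpc2 and 0.070 for Cntn2. Over 16 other settings the difference ran from -0.98 to -0.55 for Islr2, from -1.98 to -1.44 for Gpc2 and from -1.14 to -0.73 for Cntn2. Among settings with 2 libraries a genotype, Islr2 and Gpc2 passed with 0.1 in place of 1 added to TPM. Gpc2 also passed with libraries centred on pan-neuronal markers. All 3 genes passed with replicate number as a block and with only both genotypes fitted. Calls over all genes rose as well, from 6 to 149 with that pseudocount, 383 with that centring and 283 with the block. Without either wild-type or either SOX11f/f library 0 of 10 genes passed. Leaving out either SOX11f/+ library was in effect the fit of only both genotypes, since a lone library adds no spread. Passes there repeat that fit, in which 393 of all genes were called against 6. In SOX11f/+ against wild type the lowest limma adjusted p of the reported fit was 0.13, for Islr2.

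Most pan-neuronal markers also stood lower with floxed alleles, while the mature excitatory list stood higher, and in bulk tissue fewer neurons and less RNA per neuron cannot be told apart. The pan-neuronal list (15 genes, none at 0) summed to 9065 and 10135 TPM in wild-type libraries, 7755 and 8326 in SOX11f/+ and 7043 and 6798 in SOX11f/f, with a mean difference from wild type below 0 for 13 of 15 genes in SOX11f/+ and 12 of 15 in SOX11f/f. Its members Snap25, Syt1 and Nefl had higher means in SOX11f/f than in wild type. Granule neuron markers (5 genes, none at 0), among them Prox1 and Calb2, summed to 1184 and 782 TPM in wild-type libraries, 526 and 614 in SOX11f/+ and 521 and 538 in SOX11f/f. In each floxed genotype 4 of the 5 had a mean difference from wild type below 0, and Dsp, a weakly expressed one, stood higher. Cajal-Retzius markers (4 genes, none at 0) summed to 623 and 312 TPM in wild-type libraries, 247.5 and 249.6 in SOX11f/+ and 231 and 315 in SOX11f/f. Intermediate progenitor markers (5 genes, none at 0) summed to 498 and 321 TPM in wild-type libraries, 281 and 287 in SOX11f/+ and 277 and 359 in SOX11f/f. Microglia markers (7 genes, none at 0) summed to 133 and 156, 333 and 211, and 263 and 272 TPM in the same order. Ependymal and motile cilia markers (6 genes, none at 0 in all libraries) set all 4 floxed libraries apart, with sums of 4.34 and 3.90 TPM in wild-type, 328 and 106 in SOX11f/+ and 279 and 197 in SOX11f/f libraries. Astrocyte markers (6 genes, none at 0) summed to 528 and 506, 615 and 655, and 623 and 957 TPM. The S phase list (8 genes, none at 0) summed to 590 and 468, 437 and 421, and 366 and 414 TPM, and the mitosis list (6 genes, none at 0) to 310 and 190, 255 and 173, and 163 and 167 TPM. The part of these other lists in the members' levels was not tested. After each library was centred on the pan-neuronal list, the SOX11f/f difference from wild type was -1.44 for Gpc2, -0.73 for Cntn2 and -0.55 for Islr2. Gpc2 then passed the threshold (limma adjusted p = 0.016), where 383 of all genes passed against 6 in the reported fit. On that scale the median of all genes shifted to 0.25, so these values lie further below it than they lie below 0.

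The neuronal tubulin Tubb3, one of the pan-neuronal markers, was set as a yardstick after its values were seen. Relative to Tubb3, Islr2 was at 0.586 and 0.405 in wild type, 0.379 and 0.356 in SOX11f/+ and 0.443 and 0.443 in SOX11f/f, so that SOX11f/f fell inside the wild type range. Cntn2 per Tubb3 was at 0.0954 and 0.0742 in wild type, 0.0945 and 0.0662 in SOX11f/+ and 0.0725 and 0.0624 in SOX11f/f. For Gpc2 the ratio was 0.0837 and 0.0495 in wild type, 0.0544 and 0.0402 in SOX11f/+ and 0.0363 and 0.0263 in SOX11f/f. Both Cntn2 and Gpc2 per Tubb3 were wholly below wild type in SOX11f/f, by gaps smaller than the spread of their wild type pairs. The yardstick mattered for Islr2. Over each of the 15 pan-neuronal markers in turn, SOX11f/f lay wholly below wild type for 10 in the case of Islr2, the exceptions being Tubb3, Dcx, Stmn1, Nefm and Ina. It did so for 14 with Cntn2 (the exception was Nefm) and for 15 with Gpc2. SOX11f/+ lay wholly below wild type for 12 of the 15 markers with Islr2, but for 1 with Cntn2 and 3 with Gpc2. The 15 ratios of a gene share its values and the same libraries, so these counts are not separate tests. What share of all genes would give such counts was not computed. The divisors Snap25, Syt1 and Nefl had higher means in SOX11f/f than in wild type, which by itself lowers ratios over them. The other divisors had lower means, among them all the exceptions named for Islr2, which by itself raises ratios over them.

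**Figure D3:**
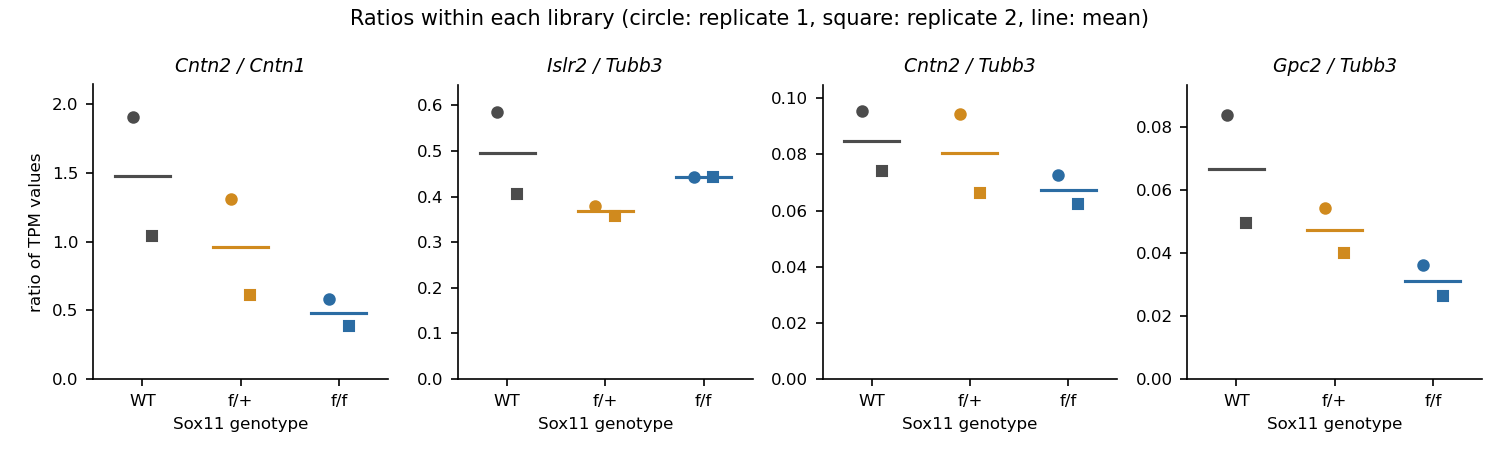
Ratios of TPM values within each library by genotype (vertical axes from 0): Cntn2 over Cntn1, and Islr2, Cntn2 and Gpc2 over Tubb3. The Cntn2 to Cntn1 ratio lies above 1 in each wild type library and is 0.580 and 0.383 in SOX11f/f, and Islr2 over Tubb3 in SOX11f/f lies between the wild type libraries.

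In wild type the order of mean levels was Islr2 (781 ± 114 TPM), Ncam1 (148 ± 4.58), Cntn2 (134 ± 8.63), Chl1 (133 ± 22.0), L1cam (111 ± 9.27), Nrcam (106 ± 20.6), Gpc2 (104 ± 26.6), Cntn1 (98.3 ± 34.9), Nfasc (72.5 ± 14.5) and Ncam2 (28.3 ± 1.04; SD, n = 2 each). Islr2 and Ncam2 stood clear of their neighbours at either end, and Ncam1 lay just above Cntn2 without overlap. The range of Ncam1 did overlap that of Chl1, though Ncam1 was the higher in each wild type library. From Cntn2 down to Nfasc the libraries of each gene overlapped those of the next, so ranges over the wild type pair did not separate these neighbours. Compared within each library, Chl1 stood above L1cam in both, while the other neighbours in that run swapped order. By the median over all 6 libraries 3 of 10 genes (Islr2, Nfasc and Ncam2) kept their place, and Cntn2 was at place 7 instead of 3 and Cntn1 at 4 instead of 8.

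Genes related to these by family or by binding were counted next, 85 in 4 lists of which 83 were tested. By limma 0 of 83 were called in any of the 3 comparisons, and 12, 18 and 5 had an unadjusted p under 0.05 for SOX11f/f against wild type, SOX11f/+ against wild type and SOX11f/f against SOX11f/+, where 18.1%, 14.1% and 2.05% of all genes did. In SOX11f/f against wild type 19 of 83 lay wholly below and 17 wholly above (30.7% and 23.6% of all genes), and their median difference of -0.04 equalled that of all genes to 2 decimals. The lowest limma adjusted p was 0.070.

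Among binding partners and modifiers, 3 genes were named by smallest p. St8sia2, the enzyme that adds polysialic acid to NCAM in the embryo, stood at 49.8 and 42.5 TPM in wild-type libraries, 41.2 and 31.9 in SOX11f/+ and 27.7 and 19.6 in SOX11f/f. The genotypes formed separate steps, with a SOX11f/f difference of -0.95 (SE 0.20, limma adjusted p = 0.11) that did not pass. Ncam1, which carries that sugar, differed by -0.26 in the same comparison. Vcan, the matrix proteoglycan versican, stood at 52.4 and 43.8 TPM in wild-type libraries, 39.1 and 36.3 in SOX11f/+ and 27.1 and 28.6 in SOX11f/f (difference -0.76, SE 0.13, limma adjusted p = 0.070). Fgfr1, an FGF receptor that NCAM and L1 engage, stood at 255 and 199.6 TPM in wild-type libraries against 152 and 155 in SOX11f/f (difference -0.55, SE 0.13, limma adjusted p = 0.12). Of 29 partner genes tested, 11 lay wholly below wild type in SOX11f/f and 4 wholly above, where 30.7% and 23.6% of all genes did.

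Gpc4, a glypican like Gpc2, stood at 7.08 and 7.96 TPM in wild-type libraries, 20.8 and 8.66 in SOX11f/+ and 17.4 and 16.0 in SOX11f/f, above wild type (difference 1.05, SE 0.35, limma adjusted p = 0.20). In that list of 18 glypican and leucine-rich repeat genes, Lrig2 (-0.42, SE 0.14) and Lingo2 (-0.36, SE 0.17) had the next smallest p. Of the 18, 2 lay wholly below wild type in SOX11f/f and 4 wholly above, where 30.7% and 23.6% of all genes did. Among the other contactins and contactin-associated proteins, Cntnap2, the partner of Cntn2 beside nodes, stood at 134 and 85.6 TPM in wild-type libraries against 89.0 and 72.9 in SOX11f/f, which overlapped. Cntnap5a (-0.42, SE 0.26) and Cntnap4 (-0.28, SE 0.21) overlapped too. Of 25 other immunoglobulin adhesion genes, Iglon5 had 64.6 and 64.4 TPM in wild-type libraries against 44.1 and 45.8 in SOX11f/f (difference -0.51, SE 0.10, limma adjusted p = 0.10). Cadm4, an immunoglobulin adhesion gene, differed by -0.31 (SE 0.09) and Nectin3 by 0.51 (SE 0.23), neither passing.

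**Figure D4:**
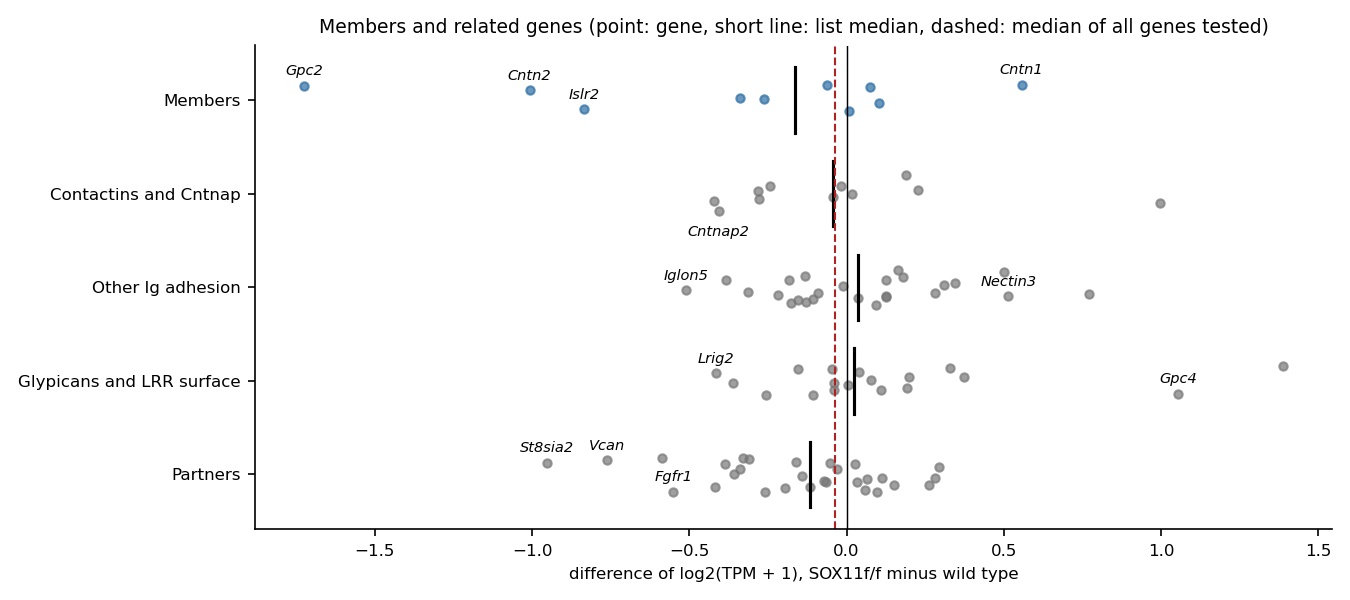
Differences of log2(TPM + 1) between SOX11f/f and wild type (horizontal axis) for the 10 genes and the 4 lists of related genes, 1 point a gene, with list medians and the median of all genes tested. Gpc2, Cntn2 and Islr2 lie at -1.72, -1.01 and -0.83, and the named related genes lie between St8sia2 at -0.95 and Gpc4 at 1.05.

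The genes whose levels followed the mean of the 10 profiles most closely over the 6 libraries were Stk4, Amer3, Acot9, Spin1 and Dync1li1, with Pearson correlations of 0.997 to 0.990. Among 11507 genes compared, 370 exceeded 0.9, so closeness over 6 libraries sharing 3 genotypes is common. Spin1 stood at 157 and 159 TPM in wild-type libraries, 124 and 140 in SOX11f/+ and 126 and 123 in SOX11f/f. The single members followed their own mean unevenly, from -0.38 for Cntn1 to 0.91 for Ncam1. Since every member is part of that mean, these correlations come out too high.

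No source states strand-aware counting, so reads of overlapping genes cannot be told apart with certainty. Islr2 on chromosome 9 (58196297 to 58204319, minus strand, GENCODE vM21 on GRCm38) overlaps Islr on the same strand, at 21.1 to 57.6 TPM, and the pseudogene 1600029O15Rik on the other, at 9.05 to 26.0 TPM. Gpc2 on chromosome 5 (138273655 to 138280005, minus) overlaps Gm43720, which did not exceed 0.19 TPM. Nfasc and Ncam1 each overlap an antisense gene, Gm10538 and Gm11149, for which the deposited values hold no row. Cntn2 and Cntn1 overlap no gene in that annotation.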

How the data were processed

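The authors deposited TPM values as 1 table with versioned Ensembl identifiers, in which each of the 6 libraries sums to about 1000000. Per the labels, TopHat 2.0.11 (to mm10) and Cufflinks 2.2.1 were used. The submitters' processing notes name FastQC and RSEM, so which tool made the table is unsure. Depth is unknown.

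From the deposited values log2(TPM + 1) was computed, on which differences of weakly expressed genes come out too small. The 14518 genes averaging 1 TPM or more were fitted with limma 3.58.1 in R 4.3.3, with all 6 libraries, a mean per genotype, 3 residual degrees of freedom, eBayes with an intensity trend and Benjamini-Hochberg adjustment over all genes at 0.05. Non-overlap was read from TPM. An exact test of 2 against 2 libraries cannot go below a two-sided p of 0.33. Positions came from GENCODE vM21 (GRCm38) by identifier, and start-site windows from RefSeq (GRCm38.p6), which matched 9 of 10 genes.

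The members and lists were chosen with earlier results of these data known. All 10 members were named. From each related list the 3 genes with the smallest p in SOX11f/f against wild type and a mean of at least 5 TPM were named, and the 5 genes most like the mean profile. Alternatives were another pseudocount, other filters, rescaling by trimmed means (TMM) or centring, other fits, a replicate block and leaving out libraries.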

Additional observations from a re-analysis of the deposited data

How the results depend on the processing

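Of 480 values recomputed for single members, 22 changed sign, and the cause was not tested. The sign could not change where a setting altered only the gene filter, the estimate of spread or a genotype outside the comparison. Nor could it change with the replicate block. The count is therefore no measure of how stable the directions are. For SOX11f/f against wild type, members called went from 0 to 2 with a pseudocount of 0.1, to 1 with pan-neuronal centring, to 3 with only both genotypes fitted, and to 3 without the libraries highest in Ttr (SOX11f/+ 1 and SOX11f/f 1), while calls over all genes went from 6 to 149, 383, 393 and 491. The last setting was chosen after seeing the data, as was centring on the median of all genes, and it leaves 1 residual degree of freedom, so that its spread comes from the wild-type pair and its calls carry little weight. Deviations between replicates correlated at 0.21 (wild type with SOX11f/+), -0.09 (wild type with SOX11f/f) and 0.35 (floxed genotypes). These values do not settle whether replicate numbers pair the libraries. Gpc2, Cntn2 and Islr2 stood higher in replicate 1 than in replicate 2 in every genotype. The replicate block gave 3 members called, 3 related genes and 283 of all genes against 6. Related genes called were 2 with only both genotypes fitted and 3 without the Ttr libraries. Over all settings, all-gene calls ran from 3 to 491 for SOX11f/f against wild type, from 1 to 397 for SOX11f/+ against wild type (397 without SOX11f/+ replicate 2) and from 1 to 12 between floxed genotypes. Pan-neuronal centring gave 376 higher and 7 lower in SOX11f/f against wild type, where the reported fit gave 3 and 3. That centring moved the members' median to -0.059 for SOX11f/+ and 0.12 for SOX11f/f against wild type. It also turned Nrcam to 0.076 and Ncam2 to 0.034 in SOX11f/+, and Chl1 to 0.22 and Ncam1 to 0.020 in SOX11f/f. Without the Ttr libraries, Nrcam was 0.12 and Ncam2 0.19 in SOX11f/+ against wild type, L1cam -0.032 in SOX11f/f against wild type, and Ncam1 -0.051 and Ncam2 -0.14 between floxed genotypes. The order by the median of all libraries kept 3 members in place. Leaving out each library in turn, with the lone library assumed to vary like the others, gave 0 to 3 members called and 0 to 2 related genes in SOX11f/f against wild type, and 0 to 2 related genes in SOX11f/+. Ranges that crossed 0 were, for SOX11f/+ against wild type, Cntn1 -0.15 to 0.58, Nrcam -0.40 to 0.12 and Ncam2 -0.55 to 0.19. For SOX11f/f against wild type they were L1cam -0.077 to 0.092, Nrcam -0.093 to 0.30 and Chl1 -0.29 to 0.16. Between floxed genotypes they were Nrcam -0.017 to 0.50, Ncam1 -0.065 to 0.20 and Ncam2 -0.12 to 0.62. With 2 libraries a genotype and no read depth, counting error could not be set beside any value.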
